A study of Rattus norvegicus with 10 samples.

Results

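The genes described here encode the machinery that carries newly made proteins into the endoplasmic reticulum (ER) and between the ER and the Golgi. They were chosen by gene symbol, namely the Sec11, Sec13, Sec16, Sec22, Sec23, Sec24, Sec31, Sec61, Sec62 and Sec63 families, the Cop coatomer genes, the Tmed, Ssr and Spcs genes, the Srp genes of the signal recognition particle and the Arf GTPases. This rule took 54 of the 9003 genes in the table. It uses symbols and no measured value, but it was chosen with earlier results of these data known. By role, 6 belong to the signal recognition particle, 6 to the Sec61 translocon and its partners, 5 to signal peptidase, 4 to the translocon-associated protein complex (TRAP), 12 to the COPII coat with its scaffold, its partners and the Sec22 proteins, 7 to the COPI coat, 8 to the p24 cargo receptors and 6 to the ARF GTPases.

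RNA was sequenced from M2 macrophages of the rat spleen, sorted by flow cytometry after enrichment of CD11b/c-bearing cells, in 10 libraries of 4 groups. The control group came from rats under physiological conditions (n = 2), and the GN group from rats with glomerulonephritis that received no cells (n = 2). The nephritis is that of WKY/NCrj rats given the mouse monoclonal antibody TF78 against the glomerular basement membrane. The EV+ (n = 3) and EV- (n = 3) groups came from nephritic rats injected with human adipose-derived mesenchymal stem cells (ASCs) whose membranes carried the dye DiD. EV+ macrophages were positive for the dye, taken as a mark of extracellular vesicles (EVs) shed by the ASCs, and EV- macrophages were negative, so both groups shared the nephritis and the cell treatment. The dye gate marks membrane transfer and not which vesicle or how much cargo a macrophage received, and whether EV+ and EV- libraries of a number came from the same rat is not given in the sources used here. The replicates are described as biological.

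Proteins destined for secretion or for membranes are recognized during translation by the signal recognition particle and threaded through the Sec61 channel, where signal peptidase removes the signal peptide. Folded cargo leaves the ER in vesicles shaped by the COPII coat, and escaped ER residents and cargo receptors return from the Golgi in vesicles shaped by the COPI coat, whose assembly the ARF GTPases start. Macrophages use this route for cytokines, complement proteins, lysosomal enzymes and surface receptors.

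Levels are given in CPM, the reads of a gene scaled to the size of its library with the authors' TMM factors. CPM is not divided by transcript length, so levels are compared between libraries and not between genes. The libraries held 19270515 to 26617093 reads on the genes of the table, of which the 54 genes took 0.606% to 0.655%. The lowest count of any of the 54 genes in any library was 41 reads, far above the 3 reads taken as the floor of detection, which amounted to 0.113 to 0.153 CPM. Macrophage markers were abundant as a sum, with 17 of 18 listed genes measured and a summed level between 26818 and 32900.3 CPM. Most of that sum was Lyz2 (15325 to 20176 CPM) and Csf1r (5800 to 8155 CPM). Cd163 and Mrc1, which often define M2 cells, stayed between 0 and 1.81 CPM. C1qa, C1qb, C1qc, Spic and Vcam1 of the same list were also low, between 0.917 and 11.2 CPM. Summed markers of NK and T cells (15 of 18 measured) reached 809.7, 117 and 60.4 CPM in EV- replicates 1, 2 and 3 and lay between 21.7 and 45.8 CPM elsewhere. Those of plasma and B cells (11 of 16 measured) lay between 337 and 486 CPM, those of neutrophils (8 of 12) between 549.8 and 745 CPM and those of erythroid cells (2 of 10) between 1.19 and 7.26 CPM.

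As a set, the secretory genes were close to level across the 4 groups. Their summed level was 6217 and 6497 CPM in the control, 6282 and 6527 CPM in the GN, 6321, 6348 and 6334 CPM in the EV- and 6489, 6368 and 6435 CPM in the EV+ libraries, so the highest library exceeded the lowest by a ratio of 1.05. In bulk RNA, fewer cells of a type and less RNA per cell cannot be told apart. Over 6 pairwise comparisons of the 4 groups, 297 of 324 gene-by-comparison differences were smaller than 1.2-fold, and in 291 of the 324 the 95% confidence interval stayed within 1.5-fold in either direction. By comparison, 81.5% to 100% of the 54 had estimates within 1.2-fold, against 74.7% to 87.4% of all genes, and 83.3% to 100% had intervals within 1.5-fold, against 58.9% to 74.7% of all genes. The shares of all genes were not matched to the 54 on level. The largest difference was 1.44-fold (Sec24a, EV+ against GN), and it did not pass the threshold. Only Sec24b passed, in EV+ against control, under limma with Benjamini-Hochberg adjustment over all 9003 genes and a false discovery rate (FDR) under 0.1, and several alternatives took that call away, as described for the COPII coat.

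These genes also varied less from library to library than the table at large. The SD within groups on the log2(CPM + 1) scale had a median of 0.116 over the 54 genes, against 0.161 over all 9003 genes and 0.139 over the 7193 genes with a mean of at least 5 CPM. The ratio of the highest to the lowest library had a median of 1.30, against 1.49 for all genes. It was under 1.5 for 39 of the 54 (72.2%), against 50.5% of all genes, and over 2 for 0 of the 54, against 2287 of all genes. These medians are descriptions with no test. The all-gene values include genes of low level, and apart from the cut at 5 CPM for the SD nothing was matched on level. How much of the difference follows from level was not tested.

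**Figure D1:**
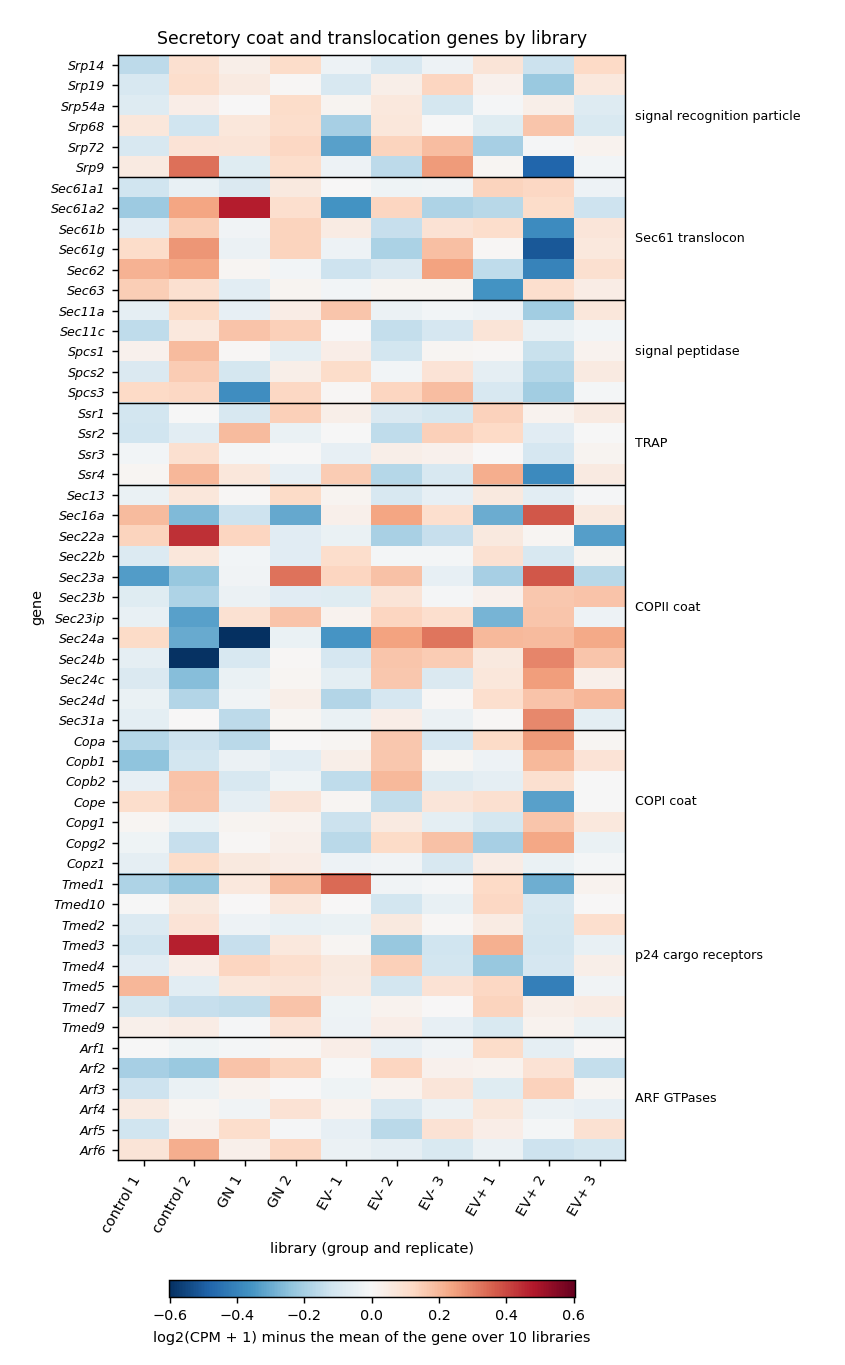
Each row is 1 of the 54 secretory genes, grouped by role, and each column 1 of the 10 libraries, and color is log2(CPM + 1) minus the gene's mean over the 10 libraries. Most cells are pale, and the strongest colors belong to single libraries, such as the low Sec24b of control replicate 2 (53.9 CPM) and the low Srp9 and Sec61g of EV+ replicate 2 (30.9 and 35.8 CPM).

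One feature that the choice by symbol did not use lies in the promoters. RefSeq promoter windows (GRCr8 assembly, 250 bases before to 50 after each annotated start) were matched by symbol for 50 of the 54 genes, all but Sec24c, Sec24d, Sec61a1 and Sec61a2. The letters TGACGTG, on either strand, occurred in 9 of these 50 windows (18%), namely those of Arf1, Arf4, Copa, Copb1, Copb2, Sec16a, Sec23a, Srp19 and Ssr4. They occurred in 1.81% of all 33469 windows and in 2.73% of the 6970 windows of genes in the table. TGACGTG is the core of the unfolded protein response element recognized by XBP1 and ATF6, factors that raise ER capacity under stress. Of the 9 matches, 7 overlapped the letters CCACG, which alone occurred in 62% of the 50 windows, 31.6% of all windows and 48.6% of those of table genes. The ER stress elements were searched on both strands as well: ERSE (CCAAT, 9 bases of any kind, then CCACG) and ERSE-II (ATTGG, 1 base of any kind, then CCACG) occurred in 0 of the 50 windows, against 0.0657% and 0.0508% of all windows and 0.215% and 0.129% of those of table genes. CCAAT alone occurred in 38% of the 50, 37.5% of all and 38.7% of table-gene windows, and the GC-box letters GGGCGG in 68%, 33.1% and 64%. A match is a description of letters, not a bound site.

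The stretches from 70 bases before to 30 bases from the start show the 5 matches nearest to a start, with capitals marking TGACGTG or its reverse complement CACGTCA, and Sec24b, the gene that passed the test, which holds no match in its window.
Sec24b (chr2:221306890-221306989, minus strand): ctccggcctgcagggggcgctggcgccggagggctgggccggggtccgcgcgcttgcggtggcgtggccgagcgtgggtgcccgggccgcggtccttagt
Arf1 (chr10:44513965-44514064, minus strand): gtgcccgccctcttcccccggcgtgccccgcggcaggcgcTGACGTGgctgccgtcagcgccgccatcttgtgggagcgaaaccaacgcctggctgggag
Arf4 (chr16:1903366-1903465, plus strand): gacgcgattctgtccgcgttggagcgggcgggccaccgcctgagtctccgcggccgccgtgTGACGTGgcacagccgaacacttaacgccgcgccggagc
Copb1 (chr1:177872811-177872910, minus strand): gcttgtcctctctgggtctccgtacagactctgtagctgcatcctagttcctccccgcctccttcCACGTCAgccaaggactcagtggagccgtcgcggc
Copb2 (chr8:108040617-108040716, plus strand): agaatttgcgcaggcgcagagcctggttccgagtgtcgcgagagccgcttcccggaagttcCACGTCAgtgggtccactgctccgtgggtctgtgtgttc
Ssr4 (chrX:156675588-156675687, plus strand): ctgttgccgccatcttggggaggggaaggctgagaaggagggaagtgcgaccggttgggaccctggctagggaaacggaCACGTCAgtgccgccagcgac
The capitals begin 30 bases before the start in Arf1, 9 bases before it in Arf4 and Copb2, 5 bases before it in Copb1 and at base 10 in Ssr4.

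The signal recognition particle binds signal peptides as they leave the ribosome. Srp14, of the domain that slows elongation, was at 94.6 and 113 CPM in the control, 108 and 114 CPM in the GN, 103, 98.6 and 103 CPM in the EV- and 111, 96.5 and 115 CPM in the EV+ libraries. GN overlapped control, with a log2 difference of 0.10 ± 0.11 (SE, adjusted p = 0.816). All EV- libraries of Srp14 were below both GN libraries, by -0.13 ± 0.10 (SE, adjusted p = 0.837), not past the threshold. Srp9, the partner of Srp14, was at 45.1 and 54.9 CPM in the control, 41.2 and 46.8 CPM in the GN, 42.5, 38.8 and 52.1 CPM in the EV- and 43.8, 30.9 and 42.9 CPM in the EV+ libraries. The GN libraries overlapped the control libraries, the lowest value was that of EV+ replicate 2, and all 3 EV+ libraries were below both controls. Its difference was -0.18 ± 0.18 (SE, adjusted p = 0.804) in GN against control and -0.35 ± 0.16 (SE, adjusted p = 0.328) in EV+ against control, neither past the threshold. Without EV+ replicate 2 the latter was -0.20 (adjusted p = 0.623). Srp72, a scaffold protein of the particle, was the lowest-read member at 1.99 to 3.27 CPM. The 6 genes summed to 297 to 338 CPM over the libraries.

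The Sec61 translocon is the protein-conducting channel of the ER membrane, with Sec62 and Sec63 assisting import. Sec61a1, the main channel subunit, was at 217 and 229 CPM in the control, 223 and 246 CPM in the GN, 237, 232 and 233 CPM in the EV- and 259, 258 and 232 CPM in the EV+ libraries. Both cell-treated groups lay above both controls, by 0.16 ± 0.08 (SE, adjusted p = 0.362) in EV+ and 0.07 ± 0.08 (SE, adjusted p = 0.782) in EV-, below the threshold in either. Sec61a2, the alternative channel subunit, was at 4.12 and 6.02 CPM in the control, 7.26 and 5.39 CPM in the GN, 3.64, 5.50 and 4.24 CPM in the EV- and 4.30, 5.43 and 4.46 CPM in the EV+ libraries. On the log2 scale GN differed from control by 0.28 ± 0.25 (SE, adjusted p = 0.789). Sec61a1 gave 96.8% to 98.5% of the reads of the pair in each library. Sec62 was at 72.9 and 74.3 CPM in the control, 63.5 and 62.2 CPM in the GN, 57.8, 59.2 and 74.6 CPM in the EV- and 56.6, 47.4 and 67.4 CPM in the EV+ libraries. Both controls were above all GN and EV+ libraries, while EV- replicate 3 reached the control level. The difference of Sec62 in EV+ against control was -0.37 ± 0.14 (SE, adjusted p = 0.223). Fitted in blocks of equal replicate number, Sec62 differed by -0.49 (adjusted p = 0.0259), past the threshold. That block joins control and EV+ libraries of different rats by number alone, and residuals of control and EV+ libraries of the same number correlated at -0.106 and -0.141 over genes, so it is not a supported pairing here. Without the block and without EV+ replicate 2 it differed by -0.25 (adjusted p = 0.447). Over the 6 genes, 5 had a negative difference in EV+ against control, as did 4503 of all 9003 genes. The median log2 of the 6 was -0.15 against -0.0001 for all genes, and 1 of the 6 had an unadjusted p under 0.05. Besides Sec61g, EV+ replicate 2 also held the lowest Sec61b and Sec62.

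Signal peptidase cuts signal peptides from the translocated chain. Spcs2, a non-catalytic subunit, was at 135 and 159 CPM in the control, 133 and 147 CPM in the GN, 155, 141 and 152 CPM in the EV- and 138, 127 and 149 CPM in the EV+ libraries. The groups overlapped throughout, with -0.07 ± 0.11 (SE, adjusted p = 0.884) in GN against control. Spcs3, another non-catalytic subunit, was at 22.6 and 22.7 CPM in the control, 15.8 and 22.7 CPM in the GN, 20.8, 22.8 and 23.7 CPM in the EV- and 19.4, 17.9 and 20.6 CPM in the EV+ libraries. GN replicate 1 was the lowest, GN replicate 2 was at the control level, and the difference of GN against control was -0.25 ± 0.17 (SE, adjusted p = 0.680). All 3 EV+ libraries of Spcs3 were below all 3 EV- libraries, with a log2 difference of -0.21 ± 0.14 (SE, adjusted p = 0.9997), not past the threshold. Of the catalytic subunits, Sec11a made up 85.1% to 88.2% of the Sec11 reads in every library and Sec11c the remainder.

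The TRAP complex sits beside the translocon and aids the import of some chains. Ssr3, its gamma subunit, was at 135 and 146 CPM in the control, 136 and 136 CPM in the GN, 132, 140.2 and 139 CPM in the EV- and 137, 127 and 138 CPM in the EV+ libraries. GN differed from control by -0.05 ± 0.09 (SE, adjusted p = 0.909). Ssr2, the beta subunit, was at 49.2 and 51.2 CPM in the control, 61.2 and 52.1 CPM in the GN, 53.6, 48.0 and 59.2 CPM in the EV- and 58.3, 51.0 and 53.5 CPM in the EV+ libraries. Both GN libraries lay above both controls, by 0.17 ± 0.13 (SE, adjusted p = 0.715). None of the 4 Ssr genes passed the threshold in limma or had an unadjusted p under 0.05 in any of the 6 comparisons.

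The COPII coat held the only call of the limma fit. Sec24b encodes a coat subunit that selects cargo. It was at 79.0 and 53.9 CPM in the control, 76.6 and 82.5 CPM in the GN, 76.2, 92.2 and 91.2 CPM in the EV- and 85.5, 101 and 92.2 CPM in the EV+ libraries. Control replicate 2 was far below the other 9 libraries, while control replicate 1 lay among the GN and EV- values and below every EV+ value. The difference was 0.50 ± 0.14 (SE, adjusted p = 0.0946), or 1.41-fold, in EV+ against control, with a 95% interval of 0.19 to 0.80. It was 0.40 ± 0.14 (SE, adjusted p = 0.226) in EV- against control and 0.28 ± 0.15 (SE, adjusted p = 0.588) in GN against control. Without control replicate 2 the difference of EV+ was 0.23 (adjusted p = 0.699). Without control replicate 1 it was 0.77 (adjusted p = 0.0164). Without EV+ replicate 2 it was 0.44 (adjusted p = 0.206). Leaving out GN replicate 1 or 2, EV- replicate 2 or 3 or EV+ replicate 3 also ended the call, at adjusted p between 0.101 and 0.210. In the fit with the replicate block it was 0.48 (adjusted p = 0.1497). EdgeR's quasi-likelihood test on recovered reads gave 0.48 (adjusted p = 0.138).

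The other Sec24 cargo adaptors shared the direction of Sec24b in EV+ against control without passing the threshold. Sec24c, the Sec24 gene with the most reads, was at 139 and 124 CPM in the control, 144 and 149.5 CPM in the GN, 142, 166 and 139 CPM in the EV- and 156, 177 and 152 CPM in the EV+ libraries. EV+ exceeded control by 0.29 ± 0.10 (SE, adjusted p = 0.177). Sec24d was at 24.6 and 22.3 CPM in the control, 24.9 and 25.9 CPM in the GN, 22.3, 23.5 and 25.4 CPM in the EV- and 27.2, 28.7 and 29.2 CPM in the EV+ libraries. Every EV+ library was above every other library, by 0.27 ± 0.12 (SE, adjusted p = 0.312) against control and 0.25 ± 0.11 (SE, adjusted p = 0.9997) against EV-. Sec24a was at 18.0 and 13.2 CPM in the control, 10.53 and 16.04 CPM in the GN, 12.7, 19.7 and 20.9 CPM in the EV- and 19.03, 18.99 and 19.5 CPM in the EV+ libraries. The 3 EV+ values of Sec24a were tightly grouped and above both GN values, of which GN replicate 1 was the lowest of all libraries. The difference of EV+ against GN was 0.53 ± 0.22 (SE, adjusted p = 0.672). Among the reads of the 4 Sec24 genes, Sec24c took 50.3% to 58.1%, Sec24b 25.3% to 32.9%, Sec24d 7.81% to 10.4% and Sec24a 4.11% to 7.54% in each library. The lowest share of Sec24b was that of control replicate 2.

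Sec23 pairs with Sec24 in the inner coat and activates the GTPase of the coat. Sec23b, which took 89.2% to 93.4% of the Sec23 reads, was at 118 and 109 CPM in the control, 121 and 118 CPM in the GN, 118, 131 and 123.5 CPM in the EV- and 126, 139 and 139.7 CPM in the EV+ libraries. All 3 EV+ libraries were above both controls, by 0.25 ± 0.08 (SE, adjusted p = 0.176). Sec23a was at 8.71 and 9.44 CPM in the control, 11.1 and 14.3 CPM in the GN, 12.4, 12.8 and 10.9 CPM in the EV- and 9.65, 14.9 and 9.90 CPM in the EV+ libraries. Both GN libraries exceeded both controls, by 0.44 ± 0.22 (SE, adjusted p = 0.518), the COPII difference of greatest size in that comparison. Sec23ip, which binds Sec23, was at 60.6 and 49.6 CPM in the control, 66.5 and 70.4 CPM in the GN, 63.4, 68.3 and 67.1 CPM in the EV- and 51.3, 70.1 and 61.03 CPM in the EV+ libraries. In GN it exceeded control by 0.31 ± 0.14 (SE, adjusted p = 0.440). Sec22a, a SNARE-related protein of the early secretory route, was at 92.6 and 115 CPM in the control, 92.4 and 80.2 CPM in the GN, 81.9, 73.5 and 76.5 CPM in the EV- and 87.9, 84.8 and 66.6 CPM in the EV+ libraries. All GN, EV- and EV+ libraries of Sec22a were below both controls, with log2 differences of -0.26 ± 0.14 (SE, adjusted p = 0.580), -0.41 ± 0.13 (SE, adjusted p = 0.154) and -0.38 ± 0.13 (SE, adjusted p = 0.176) respectively. DESeq2 called it in EV- against control (-0.43, adjusted p = 0.0574). Without control replicate 2 the difference of EV+ was -0.22 (adjusted p = 0.752). Its share of the reads of Sec22a and Sec22b was 62.4% and 64.9% in the control libraries and 52.8% to 61.3% in the other 8. Of the 12 COPII genes, 10 had a positive difference in EV+ against control and 10 in EV- against control, 2 comparisons that share their controls. Of all 9003 genes, 4494 and 4623 did. The median log2 differences of the 12 were 0.19 and 0.14. In GN against control 7 of the 12 were positive, with a median of 0.06, against 4488 of all genes. The summed level of the 12 was 902 and 843 CPM in the control, 886 and 900.0 CPM in the GN, 891, 956 and 912 CPM in the EV- and 907, 1029 and 927 CPM in the EV+ libraries. EV+ replicate 2 was the highest and control replicate 2 the lowest, and GN and EV- values overlapped those of the control. All EV+ sums were above those of control and GN, a difference that was not tested.

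**Figure D2:**
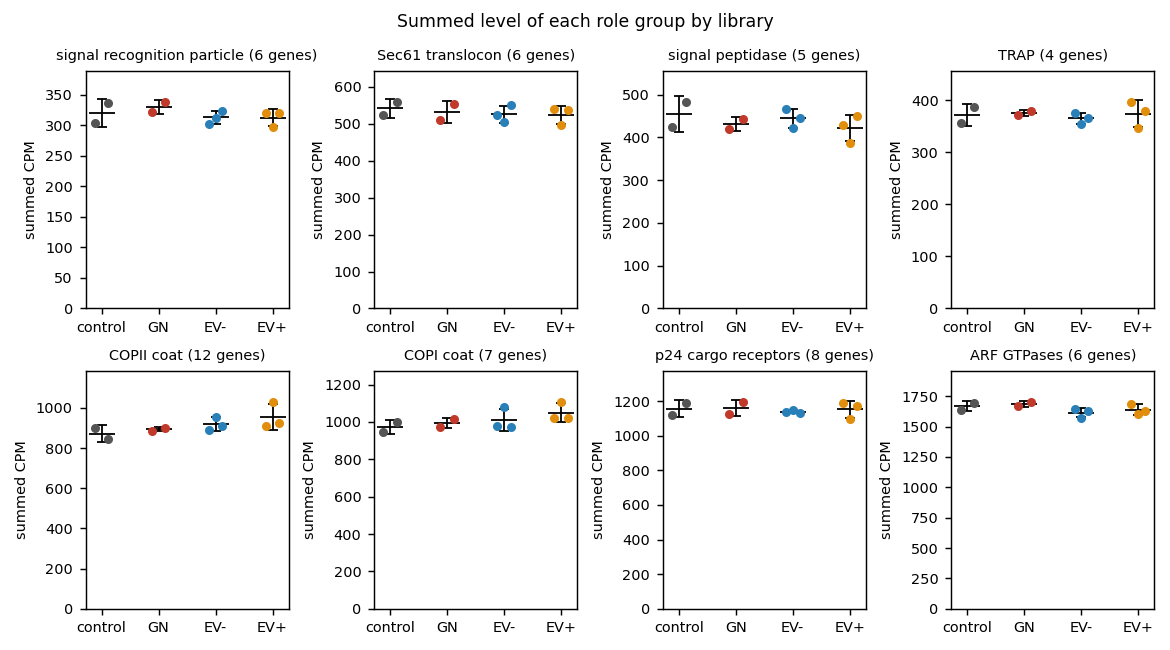
Summed CPM of the genes of each of 8 roles in every library, where points are libraries, bars the mean and SD of a group (control and GN n = 2, EV- and EV+ n = 3), and every axis starts at 0. The groups overlap in range for most roles. EV+ lies above control and GN for the COPI and COPII coats, and EV- lies below GN for the ARF GTPases, and these sums were not tested. The ratio of the highest to the lowest library runs from 1.08 for the ARF GTPases to 1.25 for signal peptidase.

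The COPI coat returns vesicles from the Golgi to the ER. Copa, its alpha subunit, was at 265 and 274 CPM in the control, 267 and 299.9 CPM in the GN, 302, 335 and 278 CPM in the EV- and 324, 358 and 301 CPM in the EV+ libraries. All EV+ libraries of Copa were above both controls and both GN libraries, by 0.28 ± 0.09 (SE, adjusted p = 0.176) and 0.21 ± 0.09 (SE, adjusted p = 0.688). The replicate block put the difference of EV+ against control at 0.34 (adjusted p = 0.0259), past the threshold, with the same limit on the block as for Sec62. Copb1, a beta subunit, was at 119 and 131 CPM in the control, 138 and 135 CPM in the GN, 145, 158 and 142 CPM in the EV- and 138, 162 and 149 CPM in the EV+ libraries. Both controls of Copb1 were below the other 8 libraries, and the differences were 0.13 ± 0.10 (SE, adjusted p = 0.724) in GN, 0.25 ± 0.09 (SE, adjusted p = 0.230) in EV- and 0.26 ± 0.09 (SE, adjusted p = 0.179) in EV+. Cope, the epsilon subunit, lay the other way, at 60.1 and 62.9 CPM in the control, 53.8 and 58.8 CPM in the GN, 56.2, 50.4 and 58.8 CPM in the EV- and 59.7, 44.3 and 55.8 CPM in the EV+ libraries. All 3 other groups of Cope were below both controls, with a difference of -0.21 ± 0.12 (SE, adjusted p = 0.457) in EV+ against control. Of the gamma subunits, Copg1 took 66.2% to 71.3% of the reads of the pair and Copg2 the remainder.

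The p24 proteins of the Tmed genes are cargo receptors that cycle between the ER and the Golgi. Tmed2 was at 323 and 361 CPM in the control, 334 and 331 CPM in the GN, 332, 355 and 343 CPM in the EV- and 354, 317 and 366 CPM in the EV+ libraries. Its groups overlapped, and GN differed from control by -0.04 ± 0.09 (SE, adjusted p = 0.936). Tmed1 was at 4.62 and 4.45 CPM in the control, 5.68 and 6.29 CPM in the GN, 7.09, 5.30 and 5.37 CPM in the EV- and 5.94, 4.21 and 5.49 CPM in the EV+ libraries. Its GN libraries were both above both controls, by 0.33 ± 0.22 (SE, adjusted p = 0.676). Tmed7 was at 163 and 159 CPM in the control, 159 and 198 CPM in the GN, 173, 179 and 176 CPM in the EV- and 193, 180.5 and 182 CPM in the EV+ libraries. EV+ values of Tmed7 exceeded control by 0.20 ± 0.09 (SE, adjusted p = 0.321) and exceeded EV- by 0.07 ± 0.08 (SE, adjusted p = 0.9997), with no overlap in either comparison. Tmed3 reached 74.9 CPM in control replicate 2 and 45.8 to 62.7 CPM in the other 9 libraries.

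The ARF proteins are small GTPases that recruit COPI and other coats. Arf1, which recruits COPI at the Golgi, was at 466 and 457 CPM in the control, 462 and 468 CPM in the GN, 479, 449.7 and 459 CPM in the EV- and 504, 449 and 468 CPM in the EV+ libraries. The ratio of its highest to its lowest library was 1.12, the lowest such ratio of the 54 genes, and its difference of GN against control was 0.01 ± 0.08 (SE, adjusted p = 0.982). Arf2 was at 15.7 and 15.4 CPM in the control, 20.6 and 19.999 CPM in the GN, 18.1, 19.98 and 18.5 CPM in the EV- and 18.4, 19.3 and 16.3 CPM in the EV+ libraries. Both controls of Arf2 were below the other 8 libraries, with a difference of 0.36 ± 0.15 (SE, adjusted p = 0.372) in GN against control. Arf6 acts at the plasma membrane and endosomes and not in ER-to-Golgi transport, and it entered through its symbol. It was at 399 and 439 CPM in the control, 386 and 411 CPM in the GN, 368, 363 and 354 CPM in the EV- and 368, 346 and 351 CPM in the EV+ libraries. All EV- and EV+ libraries of Arf6 were below all control and GN libraries, with log2 differences of -0.21 ± 0.07 (SE, adjusted p = 0.1995) and -0.24 ± 0.07 (SE, adjusted p = 0.121) against control and -0.17 ± 0.07 (SE, adjusted p = 0.686) in EV+ against GN. DESeq2 called the difference from control in both, at -0.24 (adjusted p = 0.0350) in EV+ and -0.22 (adjusted p = 0.0842) in EV-, whereas limma and edgeR did not. The Arf genes are close in sequence. How reads matching several of them were treated is not given in the sources used here, so their separate values are to that extent uncertain, as are those of other close pairs such as Copg1 and Copg2.

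**Figure D3:**
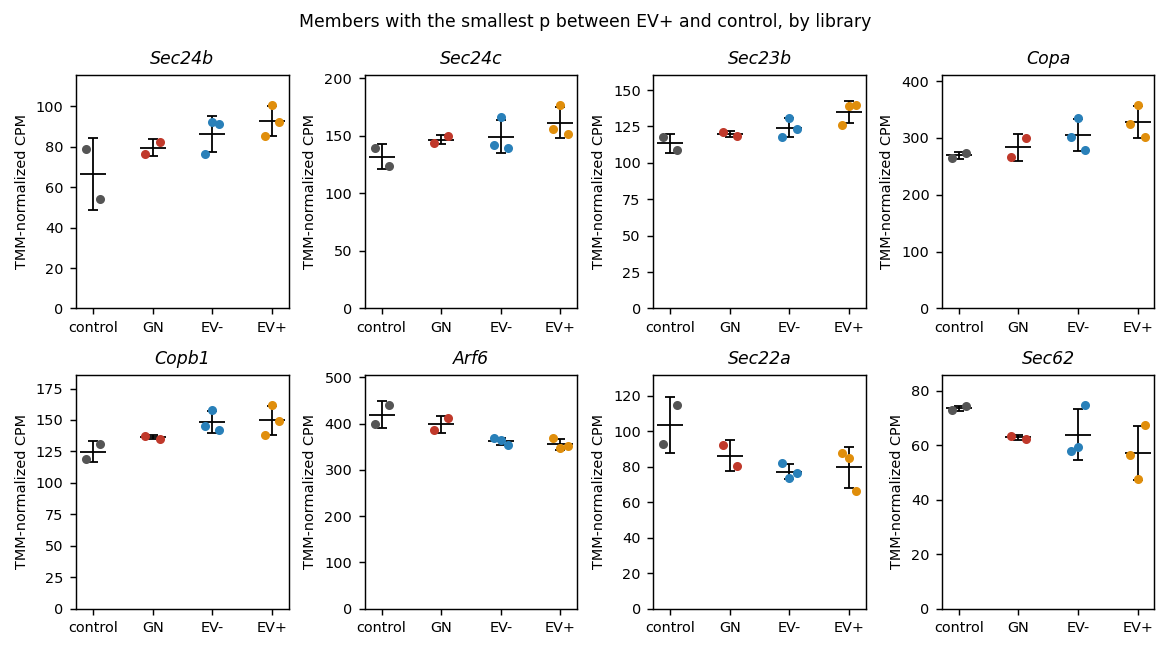
TMM-normalized CPM of 8 genes with the smallest p between EV+ and control, chosen for that difference, where points are libraries, bars the mean and SD (control and GN n = 2, EV- and EV+ n = 3), and every axis starts at 0. The EV+ points lie above the control points for Sec24b, Sec24c, Sec23b, Copa and Copb1 and below them for Arf6, Sec22a and Sec62.

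GN against control compared macrophages of nephritic rats, given TF78 and no cells, with those of rats under physiological conditions. Limma called 0 of the 54 genes, against 1.75% of all genes (0.822% called lower), and edgeR's quasi-likelihood test and DESeq2 on recovered reads also called 0. At an unadjusted p under 0.05 there were 2, Arf2 and Sec23ip, both higher in GN, which is 3.70% of the 54 against 10.4% of all genes. Both GN libraries were above both controls for 14 of the 54 (25.9%), against 21.9% of all genes, and below both for 5 (9.26%), against 22%. The 5 lower genes were Cope, Sec22a, Sec62, Sec63 and Spcs1. The genes with an unadjusted p under 0.05 numbered 4 without control replicate 1, 0 without control replicate 2, 1 without GN replicate 2 or EV+ replicate 3, and 3 with the replicate block. The median log2 difference was 0.02 over the 54 and -0.0001 over all genes.

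Of the 6 comparisons, EV+ against control gave the most genes with an unadjusted p under 0.05, and Sec24b was 1 call of the 54 (1.85%), against 3.63% of all genes (1.81% called lower). Under the replicate block, which no sign of pairing backs between control and EV+, the calls were 2, Copa and Sec62. DESeq2 also called 2, Arf6 and Sec24b, while edgeR's quasi-likelihood test called 0 (9 at an unadjusted p under 0.05). Of all 9003 genes, the block called 379, DESeq2 540 and edgeR 301. For neither the block nor DESeq2 were the 2 calls (3.7% of the 54) a larger share than over all genes. Counts this small say nothing particular to the set. Limma gave 11 genes with an unadjusted p under 0.05 (20.4%), against 15% of all genes. The 7 higher in EV+ were Sec24b, Sec24c, Sec24d, Sec23b, Copa, Copb1 and Tmed7, and the 4 lower were Arf6, Sec22a, Sec62 and Srp9. Of the 7 higher genes, 6 are coat subunits, in a set with 12 COPII and 7 COPI genes. Of these, 2 COPII and 3 COPI genes had a negative difference. Among them was Cope, with all EV+ libraries below both controls. All EV+ libraries were above both controls for 12 genes (22.2%), against 14.9% of all genes, and below for 9 (16.7%), against 15.6%. Without control replicate 2 the genes with an unadjusted p under 0.05 dropped from 11 to 2, with 0 calls. EV+ replicate 2 was the highest of the 10 libraries for 11 of the 54 genes (20.4%), against 14.3% of all genes. It was the lowest for 17, against 15.4%. Control replicate 2 was also the highest for 11, against 14.1%, and the lowest for 5, against 14.6%. The part of EV+ replicate 2 in these differences was measured only by leaving it out, which left 0 calls. Leaving out EV+ replicate 3 or EV- replicate 2 or 3 also left 0 calls. The median log2 difference was 0.01 over the 54.

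**Figure D4:**
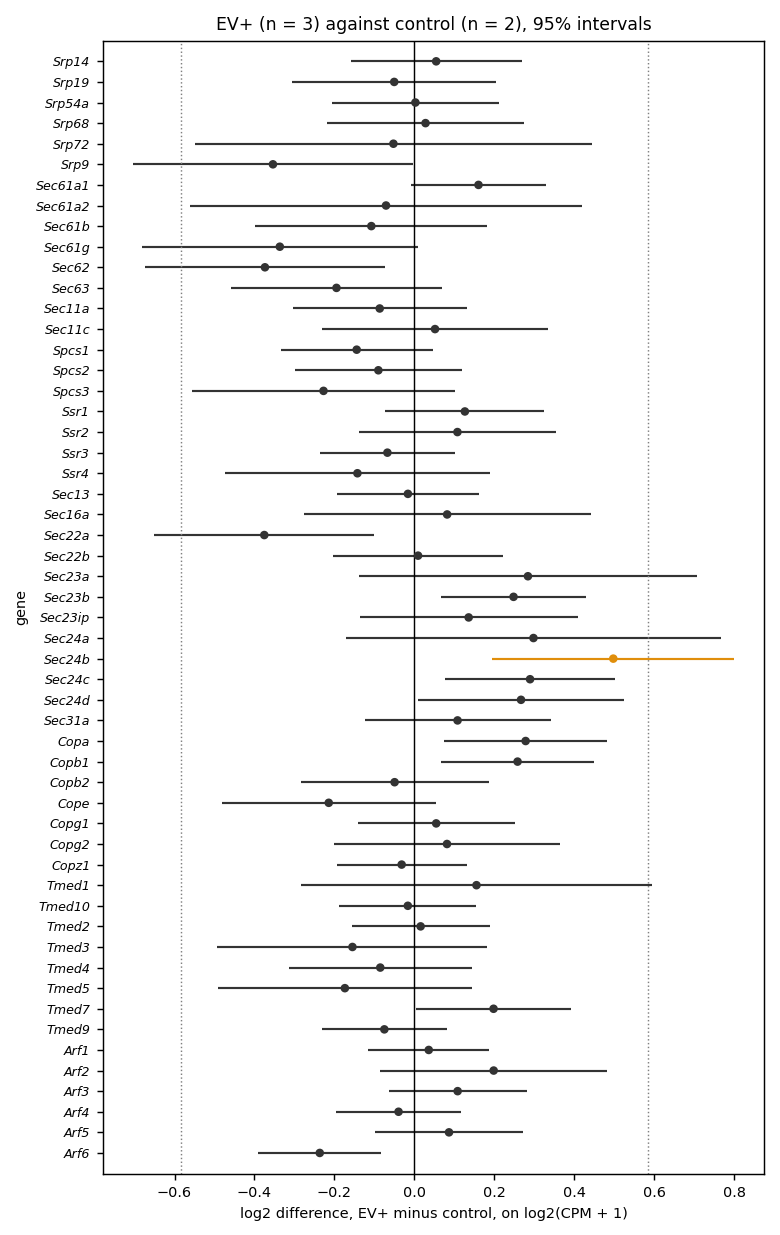
Log2 difference of EV+ (n = 3) minus control (n = 2) for each of the 54 genes on the log2(CPM + 1) scale, with 95% confidence intervals from limma, where the dotted lines mark 1.5-fold in either direction and the colored point is Sec24b. Estimates run from -0.38 for Sec22a to 0.50 for Sec24b, and 46 of the 54 intervals lie within the dotted lines.

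EV- against control gave 0 calls of the 54 in limma, against 2.84% of all genes (1.56% called lower), and 4 genes with an unadjusted p under 0.05 (7.41%), against 13.1%. These 4 were Sec24b and Copb1, higher in EV-, and Sec22a and Arf6, lower. EdgeR's quasi-likelihood test called 0 and DESeq2 called 2, Arf6 and Sec22a, and without control replicate 1 limma called Sec24b (0.67, adjusted p = 0.0493). Of all 9003 genes, edgeR called 234 and DESeq2 474 in this comparison. The 2 calls of DESeq2 (3.7% of the 54) were no larger a share, and counts this small say nothing particular to the set. All EV- libraries were above both controls for 9 genes (16.7%), against 15% of all genes, and below for 4 (7.41%), against 14.1%. Without EV- replicate 1, the library with the high NK and T cell markers, the calls were 0 and the genes with an unadjusted p under 0.05 were 4. That count of 4 was 1 without control replicate 2, 8 with the replicate block and between 3 and 6 without any other replicate.

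Against GN, the cell-treated groups gave 0 calls in limma, edgeR and DESeq2. EV+ against GN had 3 genes with an unadjusted p under 0.05 (5.56%), Sec24a and Copa higher and Arf6 lower, against 7.13% of all genes, of which 0.122% were called. There was 1 such gene without GN replicate 1 or EV+ replicate 2 and 2 with the replicate block. All EV+ libraries were above both GN libraries for 7 genes (13%, against 11.2% of all genes), which were all 4 Sec24 genes, Sec23b, Copa and Copb1, and below for 5 (9.26%, against 11.8%), which were Arf2, Arf6, Sec11c, Srp72 and Tmed4. EV- against GN had 0 genes with an unadjusted p under 0.05, against 7.85% of all genes, of which 0.378% were called (0.322% lower), and 1 such gene with the replicate block. Non-overlapping values were found for 3 genes above GN (5.56%, against 12.6%) and 6 below (11.1%, against 12.8%). The median log2 difference over the 54 genes was -0.04 in EV+ and -0.04 in EV-.

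EV+ against EV- compares dye-positive with dye-negative macrophages under the same treatment. It gave 0 calls of the 54 in limma, edgeR and DESeq2, against 0.0222% of all genes in limma, and 1 gene with an unadjusted p under 0.05 (1.85%), Sec24d, against 4.57%. The EV+ libraries were all above the EV- libraries for Sec24d and Tmed7 (2 of 54, 3.70%, against 4.25% of all genes) and all below for Spcs3 (1.85%, against 4.65%). All 54 estimates were within 1.2-fold. All 54 confidence intervals were within 1.5-fold, against 74.7% of intervals over all genes, which were not matched on level. Since residuals of EV+ and EV- libraries of the same number correlated, the direction within numbers was also counted. EV+ was higher at all 3 numbers for 13 genes (24.1%, against 13.7% of all genes), namely Arf5, Copa, Copg1, Sec11c, Sec13, Sec23b, Sec24b, Sec24c, Sec24d, Ssr1, Tmed3, Tmed7 and Tmed10, and lower for 4 (7.41%, against 14.3%), namely Arf6, Sec62, Spcs2 and Spcs3. These counts carry no test. The estimates ran from -0.21 to 0.25 on the log2 scale. The fit with the replicate block gave 0 calls and 1 gene with an unadjusted p under 0.05. Without EV- replicate 1 there were 0 calls and 0 genes with an unadjusted p under 0.05.

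Lists of other genes of the same route were read against the shares of all genes given for each comparison, 0.0222% to 3.63% called and 4.57% to 15% at an unadjusted p under 0.05. Of 40 measured pathway partners, such as the COPII GTPases Sar1a and Sar1b, the cargo receptor Lman1, the Kdelr receptors and the golgins and tethers, limma called 0 in each of the 6 comparisons, with 0 to 4 at an unadjusted p under 0.05. Of 26 measured genes of ER insertion and glycosylation, such as the oligosaccharyltransferase and ER membrane complex subunits, it also called 0, with 0 to 5 at an unadjusted p under 0.05. At those shares few or no calls would be met in any lists of this size, so the counts of 0 say nothing particular to them, and other tools were not counted for them. Of 33 measured genes of the unfolded protein response, 3 were called lower in EV+ and in EV- against control, where 1.81% and 1.56% of all genes were called lower. In GN against control and in EV- against GN 1 was called lower, where 0.822% and 0.322% of all genes were, and 0 were called higher in any comparison. At an unadjusted p under 0.05 there were 8 of the 33 in GN, 8 in EV+ and 5 in EV- against control. Ppp1r15a, which directs the dephosphorylation of eIF2 alpha after stress, was at 1693 and 1279 CPM in the control, 872 and 794 CPM in the GN, 536, 543 and 623 CPM in the EV- and 555, 649 and 615 CPM in the EV+ libraries. Both controls lay above all other libraries, and the log2 differences from control were -0.82 (adjusted p = 0.00543) in GN, -1.38 (adjusted p = 1.7e-05) in EV- and -1.28 (adjusted p = 2.62e-05) in EV+. Atf4, the transcription factor of the integrated stress response, fell by 0.57 in EV+ (adjusted p = 0.00152) and 0.43 in EV- (adjusted p = 0.0157) on the log2 scale, and Ddit3, a target of ATF4, fell by 0.38 and 0.40 (adjusted p = 0.0352 and 0.0331). The median log2 difference of the 33 genes from control was -0.10 in GN, 0.0055 in EV+ and -0.0041 in EV-.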

How the data were processed

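RNA of sorted rat splenic M2 macrophages was sequenced in 10 libraries (control n = 2, GN n = 2, EV+ n = 3, EV- n = 3), and groups and replicate numbers were taken from the sample titles. The authors made SMART-Seq v4 and Nextera XT libraries and aligned paired-end reads to rn6 with STAR (version 2.5.3). They counted reads per RefSeq gene with HTSeq (version 0.6.0) under its intersection-strict model. Genes that never reached 1 CPM were dropped, and the rest were scaled by TMM in edgeR. The strand setting and the treatment of reads with several matches are not given in the sources used here. How far overlapping and antisense genes were told apart is therefore not known. The deposited signal is therefore TMM-normalized CPM of 9003 genes, with 1.01 CPM as the smallest row maximum, and 0 columns were left out. Every value (100%) was a whole multiple of the worth of 1 read within 0.1 read, which gave back the read counts. Symbols of 18 genes had been turned into dates and could not be named. No library was a copy of another.

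Limma (version 3.58.1, in R version 4.3.3) was fitted to log2(CPM + 1) of all genes and all 10 libraries by group, with an intensity trend, an FDR under 0.1 over the 9003 genes and 6 residual degrees of freedom. Fold changes are on that scale and understate changes of low genes. The procedure was tested on simulated data. Alternatives were edgeR (version 4.0.16) quasi-likelihood tests with TMM or RLE factors and DESeq2 (version 1.42.0) on recovered reads, a pseudocount of 0.1, at least 1 CPM in at least 2 libraries, no intensity trend, an FDR under 0.05, the replicate number as a block, and each replicate left out. EdgeR with TMM called 147, 301 and 234 genes of the table in GN, EV+ and EV- against control, 9 and 36 in EV+ and EV- against GN and 2 in EV+ against EV-, beside 158, 327, 256, 11, 34 and 2 in limma.

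Residuals of EV+ and EV- libraries of the same replicate number correlated at 0.203, 0.295 and 0.122 over genes. That is a sign of pairing from the data and the numbers in the titles alone. Those of different numbers correlated at -0.0129 or below. Residuals of a gene sum to 0 within a group, which pushes these values below 0, so they are no separate sign. The limma fit by group, whose values are given throughout, does not use this pairing. The fit with the replicate block stands beside a result where it changes a call. For control and GN the correlation was 0.0878, and for control and EV+ it was -0.106 and -0.141, so for comparisons with control the numbers give no pairing. The direction of EV+ within numbers was counted after the data were seen.

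The members, roles and gene lists were chosen with earlier results of these data known. Genes named are those called, the member of each role with the highest mean CPM and that with the largest difference of GN from control among those with a mean of at least 5 CPM, and genes of the unfolded protein response list that were called. No member had separate groups and a fold over 2, the remaining part of the rule. Genes with an unadjusted p under 0.05 or without overlap, and Cope, Sec61g, Srp72 and Tmed3, were named after their values were seen. Promoter windows are from RefSeq (GRCr8), another assembly than the one the reads were aligned to, and were matched by symbol. Floors cover counting error only, as no molecular identifiers were used.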

Additional observations from a re-analysis of the deposited data

How the results depend on the processing

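The count of secretory genes called stayed at 0 in GN against control, EV+ against GN, EV- against GN and EV+ against EV- under every alternative run, leaving out each replicate included (0 to 0). In EV+ against control the 1 call became 0 with edgeR's quasi-likelihood test under TMM or RLE factors, with no intensity trend and with an FDR under 0.05, and 2 with DESeq2 and 2 with the replicate block, and it ranged from 0 to 1 over the replicates left out. In EV- against control the 0 calls became 2 with DESeq2 and ranged from 0 to 1 over the replicates left out. The cause of these changes was not tested. The replicate block changed no other count of calls at FDR under 0.1, and among the alternatives run Copa and Sec62 were called only with it. No called value changed sign. The median log2 difference of the 54 genes, always near 0, was -0.06 in EV+ against control without control replicate 1, 0.06 in EV- against control without control replicate 2 and 0.02 in EV+ against GN without EV+ replicate 2, against an SD within groups of 0.055. Over all genes, DESeq2 called 294, 540 and 474 genes in GN, EV+ and EV- against control, 41 and 113 in EV+ and EV- against GN and 34 in EV+ against EV-. The comparisons with control rest on 2 control libraries, of which replicate 2 was the lowest of all for Sec24b. The 95% intervals of the 54 genes had a median half-width of 0.26 on the log2 scale in GN against control, 0.23 in the other comparisons with control and GN and 0.21 in EV+ against EV-. Those widths mark an unadjusted test, and larger differences, such as 0.53 of Sec24a, were not called either.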
